A study of Homo sapiens with 6 samples.

Results

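The RNA of the cell's oxygen sensor was followed in 10 genes, taken from the deposited table by their symbols: the HIF alpha subunits HIF1A, EPAS1 and HIF3A, the beta subunits ARNT and ARNT2, the prolyl hydroxylases EGLN1, EGLN2 and EGLN3, the ubiquitin ligase subunit VHL, and HIF1AN, the asparaginyl hydroxylase also called FIH. All 10 were found among the 60569 gene names of the table. The cell line was MDA-MB-453, derived from human breast cancer and of luminal type. In 3 libraries the cells had been transfected with a construct for overexpression of ZNF207, a zinc finger protein of the mitotic spindle, and in 3 libraries with a control vector; the design text calls the 3 libraries of a group independent biological replicates. Not given in the sources used here are the vector's promoter, the time after transfection and the oxygen level of the culture.

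Levels are FPKM, fragments per kilobase of transcript scaled to the library's mapped fragments, so that genes within a library can be compared per length. ZNF207 itself stood at 885, 786 and 750 FPKM in the ZNF207 libraries and at 69.2, 67.0 and 63.7 FPKM in the control libraries. Between 13061 and 13231 genes reached 1 FPKM in each library. Markers of luminal apocrine breast epithelium were all 10 present, with summed levels of 6701 to 6757 FPKM in the ZNF207 libraries and 7032 to 7394 FPKM in the control libraries. Markers of endothelium summed to 0.618 to 1.09 FPKM in ZNF207 libraries and 0.458 to 1.12 FPKM in control libraries, and those of leukocytes to 0.962 to 2.03 FPKM in ZNF207 libraries and 1.16 to 1.67 FPKM in control libraries. TIE1 of endothelium and THY1 of fibroblasts were listed at 0 in all 6 libraries. In fibroblast markers, summing to 8.27 to 10.5 FPKM in ZNF207 libraries and 9.52 to 11.7 FPKM in control libraries, COL1A1 made up most of the level. The basal markers, in sum at 23.9 to 27.3 FPKM in ZNF207 libraries and 24.8 to 27.2 FPKM in control libraries, consisted mainly of ACTA2 and KRT17. In bulk RNA, fewer cells expressing a gene and less RNA per cell cannot be told apart.

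When oxygen is plentiful, the prolyl hydroxylases use it, with iron and 2-oxoglutarate, to hydroxylate the HIF alpha subunits, and the VHL ubiquitin ligase then marks these for degradation. HIF1AN adds a further hydroxyl group that keeps coactivators away from the alpha subunit. When oxygen is scarce, the alpha subunits escape, pair with a beta subunit and switch on genes of glycolysis, blood vessel growth and pH control. EGLN1 and EGLN3 are themselves HIF target genes, which gives the sensor a feedback loop, whereas EGLN2 is not known as one. Because the alpha subunits are controlled mainly as proteins, an RNA level says little about HIF activity by itself.

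Bases before the annotated start sites are shown for the members whose RNA differed most between the groups and for EGLN2, their close relative that did not. A hypoxia response element has the core ACGTG or GCGTG. Both were searched on both strands in the 250 bases before each RefSeq start (GRCh38.p14); ACGTG within CACGTG matches both strands at overlapping positions. Capitals mark a match, extended to CACGTG in EGLN2. HIF1A is shown for chr14:61695263-61695512 (plus strand), EGLN1 for chr1:231422288-231422317 (minus strand), EGLN2 for chr19:40799130-40799159 (plus strand) and EGLN3 for chr14:33951082-33951324 (minus strand). The whole EGLN1 window lies in exons of GENCODE 29, whose EGLN1 gene starts farther upstream, and 57 bases of the EGLN2 window lie in exons too. For both only 30 bases around the match are printed, and for EGLN3 the stretch outside annotated exons. In GENCODE 29 the genes EGLN3, EPAS1 and HIF1AN also start upstream of their windows, which thus lie inside the annotated genes.
HIF1A: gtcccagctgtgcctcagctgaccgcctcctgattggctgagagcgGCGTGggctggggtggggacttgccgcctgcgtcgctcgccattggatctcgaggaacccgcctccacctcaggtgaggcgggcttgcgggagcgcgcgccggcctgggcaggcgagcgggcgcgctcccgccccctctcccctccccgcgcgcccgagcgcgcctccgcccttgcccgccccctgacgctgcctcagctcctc
EGLN1: ccgcggggccgtggtgtACGTGcagagcgc
EGLN2: gcggggcgcggtCACGTGcccaccgggcga
EGLN3: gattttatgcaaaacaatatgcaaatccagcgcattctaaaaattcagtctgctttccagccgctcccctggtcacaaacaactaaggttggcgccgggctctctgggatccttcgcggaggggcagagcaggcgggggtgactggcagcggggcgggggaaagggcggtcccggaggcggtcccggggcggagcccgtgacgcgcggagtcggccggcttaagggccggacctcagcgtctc
EGLN1 held 1 match, ACGTG at 13 bases before the RefSeq start and within that exon. HIF1A held 1, GCGTG at 204 bases before its first start. EGLN2 held 2 overlapping matches at 49 and 48 bases before its first start, and EGLN3 held 0 in the window. Of 35116 such windows over the genome, 43.2% held at least 1 match. Windows were found for 8 of the 10 members: EPAS1 also held 1 match and HIF3A held 3 before its first start, while ARNT and HIF1AN held 0. HIF1A, HIF3A and EGLN2 also had windows before further starts, and these held 0 matches. The 43.2% counts windows and not genes, so it cannot be set against the number of members with a match.

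None of the 8 members that could be tested passed the test used here, which was limma on log2(FPKM + 1) with Benjamini-Hochberg adjustment over 13185 tested genes and a threshold of 0.05. HIF1A RNA was 1.38 times as high in ZNF207 libraries as in controls, EGLN1 was 0.756 times and EGLN3 0.814 times as high, and each of these differences parted the 6 libraries by group. ARNT, EGLN2, VHL and HIF1AN had log2 changes between -0.02 and 0.02. Of the 10 members, 8 passed the filter on low values and were tested; ARNT2 and HIF3A did not. The test called 0 of the 8 members, beside 28 of all tested genes, or 0.212%: 7 higher (0.0531%) and 21 lower (0.159%). With quantile scaling the call split was 8 higher and 12 lower, and with median-of-ratios scaling it was 6 higher and 11 lower. Before adjustment, 3 of 8 members had a p under 0.05, 1 higher and 2 lower, beside 12.1% of all tested genes (5.08% higher and 7.03% lower). The groups did not overlap for 4 of the 8, 2 in each direction, beside 18% of all tested genes (7.61% higher and 10.4% lower).

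**Figure D1:**
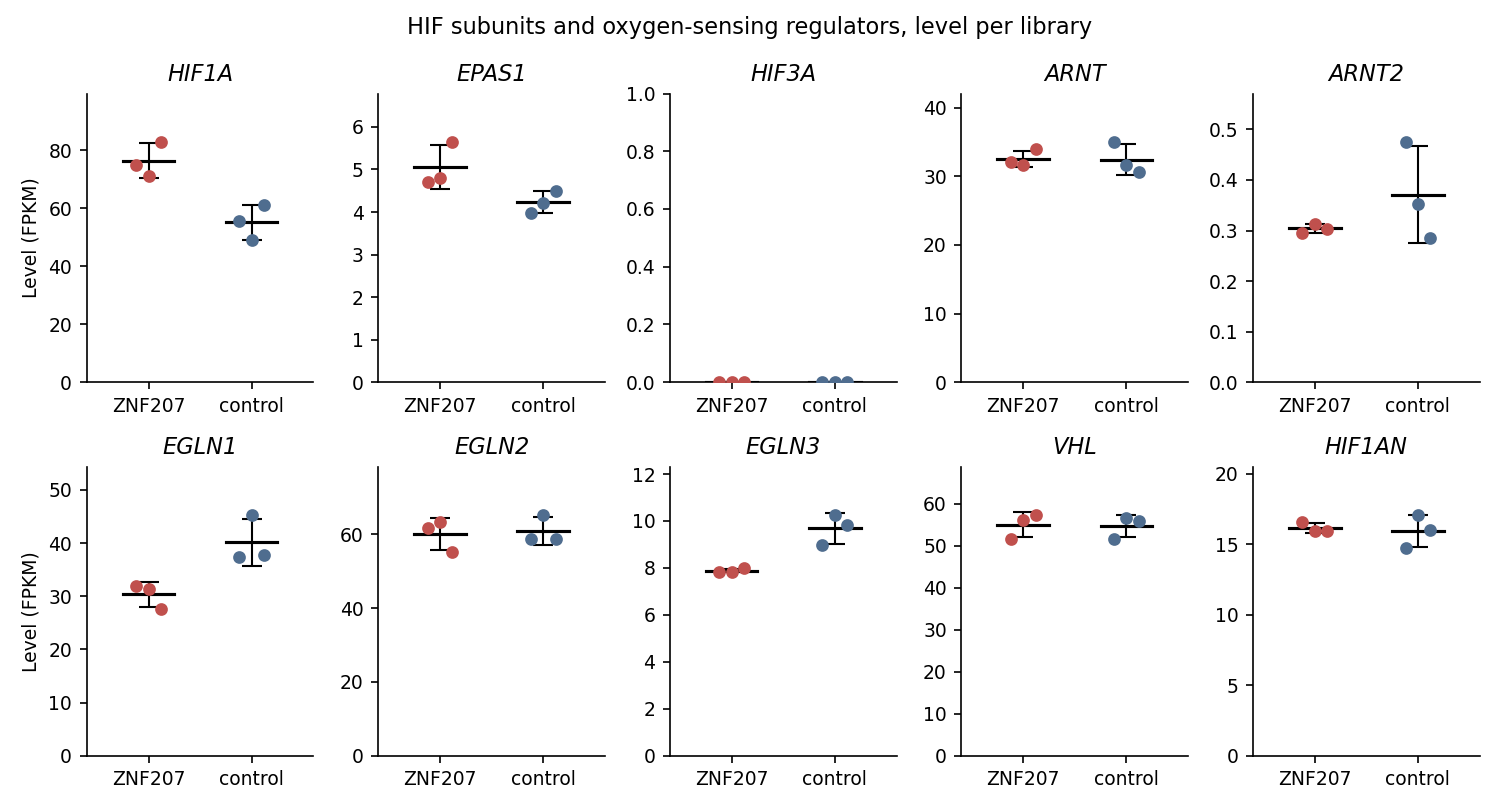
Level in FPKM (vertical axis, from 0, scaled to each gene) of the 10 members in the 3 ZNF207 overexpression libraries (red) and the 3 control libraries (blue); lines give the mean and bars the SD. The groups do not overlap for HIF1A, EPAS1, EGLN1 and EGLN3, and HIF3A is listed at 0 throughout.

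HIF1A, the alpha subunit found in most cell types, was the member with the smallest p. It stood at 75.0, 71.1 and 82.9 FPKM in the ZNF207 libraries, against 55.5, 49.0 and 61.0 FPKM in the control libraries. Every ZNF207 library lay above every control library, the nearest pair being 71.1 and 61.0 FPKM. The means were 76.3 ± 6.03 FPKM in ZNF207 libraries and 55.1 ± 5.98 FPKM in control libraries (SD, n = 3 each), a log2 change of 0.46 (SE 0.09, 95% confidence interval 0.27 to 0.66). The p was 0.000382, the 67th smallest of the tested genes, and the limma adjusted p was 0.0751, which does not pass. With the filter at an FPKM of 5 in at least 3 libraries, the unadjusted p was 0.000231 and the adjusted p 0.0434. HIF1A passed under 2 of 17 alternatives, and its limma adjusted p was 0.308 without a filter on low values.

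The gene lies on chromosome 14 from 61695513 to 61748259 on the plus strand (GENCODE 29, GRCh38). A noncoding RNA of the opposite strand, HIF1A-AS3 (61715558 to 61751097 in RefSeq, GRCh38.p14), runs across its end. HIF1A-AS3 stood at 4.42, 5.55 and 3.93 FPKM in the ZNF207 libraries, against 8.02, 6.36 and 10.1 FPKM in the control libraries. Here each ZNF207 library was below each control library, the reverse of HIF1A. The log2 change was -0.69 (SE 0.16, limma adjusted p = 0.127), so the difference did not pass the test. In GENCODE 29, which lists the same gene ID as HIF1A-AS2, the exons of both genes share 0 bases, but introns overlap and the strand of the libraries is not given in the sources used here, so unspliced reads of both genes cannot be told apart. HIF1A-AS1, which starts beside the HIF1A promoter and shares 117 exonic bases with HIF1A, stayed at 0 to 0.272 FPKM.

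EPAS1, the alpha subunit also called HIF-2 alpha and known from endothelium and kidney, was a minor species in these cells (chromosome 2, 46293667 to 46386703, plus strand). EPAS1 levels were 4.71, 4.79 and 5.65 FPKM in the ZNF207 libraries and 3.98, 4.22 and 4.51 FPKM in the control libraries. The lowest ZNF207 library was just above the highest control library, and ZNF207 replicate 3 stood above the other libraries. The log2 change was 0.21 (SE 0.11, 95% confidence interval -0.04 to 0.45, limma adjusted p = 0.493). HIF3A, an alpha subunit with inhibitory splice forms, was listed at 0 in all 6 libraries. HIF1A made up 94.1%, 93.7% and 93.6% of alpha subunit FPKM in ZNF207 libraries, and 93.3%, 92.1% and 93.1% in control libraries. Alpha subunit FPKM summed to 81.4 ± 6.51 in ZNF207 libraries and 59.4 ± 6.12 in control libraries (SD, n = 3 each).

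The beta subunits showed no difference like that of HIF1A. ARNT, the common partner of all alpha subunits and of the dioxin receptor AHR (chromosome 1, 150809705 to 150876768, minus strand), stood at 32.0, 31.6 and 33.9 FPKM in the ZNF207 libraries and at 35.0, 31.6 and 30.6 FPKM in the control libraries. These values overlapped over most of their range, and the log2 change was 0.01 (SE 0.07, 95% confidence interval -0.15 to 0.16, limma adjusted p = 0.984). ARNT2, a beta subunit known from brain, was below the filter, at 0.295, 0.314 and 0.303 FPKM in ZNF207 libraries and 0.476, 0.352 and 0.286 FPKM in control libraries. ARNT was 99.1% of beta subunit FPKM in the ZNF207 libraries and 98.9% in the control libraries on average.

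Among the prolyl hydroxylases, EGLN1 (PHD2), the main oxygen sensor for HIF1A, had lower values in every ZNF207 library than in any control library (chromosome 1, 231363751 to 231425044, minus strand). EGLN1 levels were 32.0, 31.4 and 27.6 FPKM in the ZNF207 libraries, against 37.4, 45.3 and 37.7 FPKM in the control libraries. The highest ZNF207 library was at 32.0 and the lowest control library at 37.4 FPKM, and control replicate 2 was the highest of all. The log2 change was -0.39 (SE 0.09, 95% confidence interval -0.59 to -0.19), with a p of 0.00155 and a limma adjusted p of 0.117, which does not pass. It was -0.30 without control replicate 2 (adjusted p = 0.359).

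EGLN3 (PHD3), the isoform known for its strong induction in hypoxia (chromosome 14, 33924231 to 34462774, minus strand), stood at 7.85, 7.84 and 7.98 FPKM in the ZNF207 libraries, against 8.98, 10.3 and 9.82 FPKM in the control libraries. The ZNF207 libraries were close to each other and all below the controls. The log2 change was -0.26 (SE 0.09, 95% confidence interval -0.45 to -0.07), with a p of 0.0120 and a limma adjusted p of 0.251.

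EGLN2 (PHD1) was the most abundant prolyl hydroxylase RNA in all 6 libraries (chromosome 19, 40798996 to 40808433, plus strand). EGLN2 levels were 61.8, 63.4 and 55.1 FPKM in the ZNF207 libraries and 58.6, 65.2 and 58.8 FPKM in the control libraries. The groups overlapped, with the lowest library of all among the ZNF207 libraries and the highest among the controls, and the log2 change was -0.02 (SE 0.07, 95% confidence interval -0.18 to 0.14, limma adjusted p = 0.947). The readthrough transcript RAB4B-EGLN2, which joins the upstream gene RAB4B to EGLN2 and shares 2012 exonic bases with it, stood at 2.35, 2.36 and 2.44 FPKM in ZNF207 libraries and at 1.89, 1.46 and 1.44 FPKM in control libraries. Its log2 change of 0.39 (SE 0.14, limma adjusted p = 0.294) did not pass, and since both rows share sequence its value is uncertain. RAB4B alone had a log2 change of 0.05 (limma adjusted p = 0.879). GOLPH3L and CTSK, genes near ARNT, were at 0.07 and -0.01 (limma adjusted p 0.689 and 0.989). Of the genes beside members, AL445524.1 near EGLN1 averaged 3.72 ± 1.24 FPKM in ZNF207 libraries and 6.59 ± 1.66 FPKM in control libraries (SD, n = 3 each), with overlap and a log2 change of -0.69 (limma adjusted p = 0.230). SEC31B near HIF1AN averaged 0.974 ± 0.184 FPKM in ZNF207 libraries, under the filter value of 1 FPKM, and 1.53 ± 0.210 FPKM in control libraries (log2 change -0.36, limma adjusted p = 0.404). Its groups did not overlap, with ZNF207 libraries lower, as for 10.4% of all tested genes. SNAPC1, SPTSSA, TSNAX, DISC1 and NDUFB8, also beside members, overlapped between the groups. Their log2 changes were -0.11, 0.07, 0.10, 0.16 and -0.08.

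The makeup of prolyl hydroxylase RNA differed accordingly. EGLN1 took 31.5%, 30.6% and 30.4% of the summed FPKM of the class in ZNF207 libraries, against 35.6%, 37.5% and 35.5% in control libraries. EGLN2 took 61.1 ± 0.577% in ZNF207 libraries and 55.0 ± 0.925% in control libraries (SD, n = 3 each), and the groups did not overlap for either gene. The EGLN3 share, 8.05 ± 0.645% in ZNF207 libraries and 8.76 ± 0.414% in control libraries, did overlap. The exact two-sided permutation p was 0.1 for the EGLN1 and EGLN2 shares, the smallest that 3 against 3 libraries allow, and 0.3 for the EGLN3 share. Multiplying a library by a constant leaves these shares as they are; quantile scaling was not run on them. Summed prolyl hydroxylase RNA was 98.3 ± 6.63 FPKM in ZNF207 libraries and 111 ± 8.71 FPKM in control libraries.

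**Figure D2:**
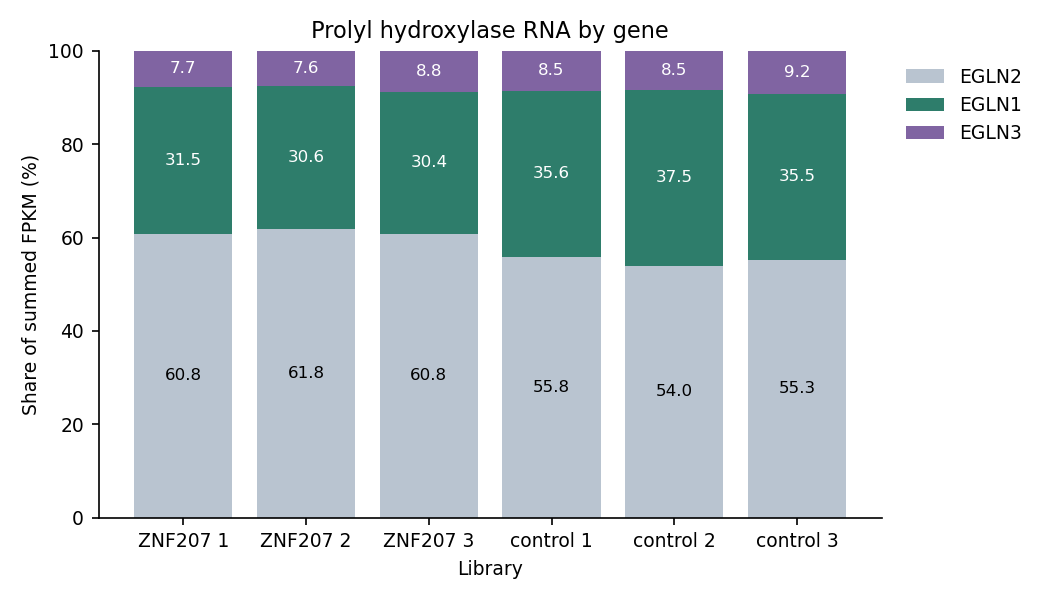
Share of each prolyl hydroxylase gene in the summed FPKM of the class (vertical axis, percent), with a stacked bar for each library, ZNF207 overexpression libraries on the left and control libraries on the right. The EGLN1 segment lies between 30.4% and 31.5% in ZNF207 libraries and between 35.5% and 37.5% in control libraries.

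VHL and HIF1AN showed no difference of this size. VHL, which recognises the hydroxylated alpha subunit (chromosome 3, 10141008 to 10152220, plus strand), stood at 51.5, 56.1 and 57.3 FPKM in the ZNF207 libraries and at 51.6, 56.6 and 55.8 FPKM in the control libraries. The groups overlapped over nearly all of their range, and the log2 change was 0.01 (SE 0.06, 95% confidence interval -0.13 to 0.15, limma adjusted p = 0.976). HIF1AN (chromosome 10, 100529072 to 100559998, plus strand) stood at 16.5, 15.9 and 16.0 FPKM in the ZNF207 libraries and at 14.7, 17.1 and 16.0 FPKM in the control libraries. All ZNF207 values lay within the control range, with a log2 change of 0.02 (SE 0.08, 95% confidence interval -0.15 to 0.19, limma adjusted p = 0.942). The intervals of ARNT, EGLN2, VHL and HIF1AN run from -0.18 to 0.19 on the log2 scale in all.

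**Figure D3:**
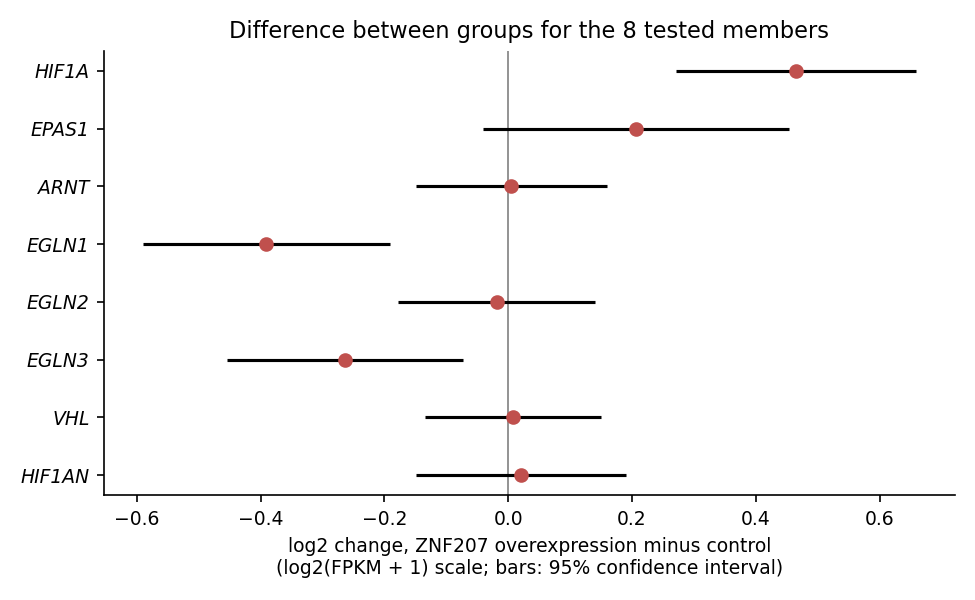
Log2 change of the 8 tested members (points; ZNF207 overexpression minus control on the log2(FPKM + 1) scale) with 95% confidence intervals from limma, not adjusted for the number of genes. The intervals of HIF1A, EGLN1 and EGLN3 leave out 0, and those of ARNT, EGLN2, VHL and HIF1AN are centred close to it.

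The order of levels within the sensor also differed. In ZNF207 libraries HIF1A was the most abundant member, and its lowest library, at 71.1 FPKM, exceeded the highest EGLN2 library, at 63.4 FPKM. In control libraries HIF1A, at a mean of 55.1 FPKM, overlapped with both EGLN2 and VHL, at means of 60.9 and 54.7 FPKM. EGLN2 lay above VHL there without overlap, its lowest control library at 58.6 FPKM and the highest VHL control library at 56.6 FPKM. EGLN1 came next in controls, above ARNT without overlap, and in ZNF207 libraries it overlapped with ARNT. HIF1AN, EGLN3, EPAS1 and ARNT2 followed in this order in both groups, each apart from the next.

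Ratios within a library put the alpha subunit against its regulators. The log2 ratio of HIF1A to EGLN1 was 1.23, 1.18 and 1.59 in ZNF207 libraries, against 0.57, 0.11 and 0.69 in control libraries, a difference of 0.87 that parted the groups. For HIF1A to ARNT the difference in the log2 ratio was 0.47, for VHL to HIF1A it was -0.46, for HIF1AN to HIF1A -0.45, for EGLN1 to EGLN2 -0.38, for EGLN3 to EGLN2 -0.28 and for EPAS1 to HIF1A -0.22. Each of these 7 ratios had an exact two-sided permutation p of 0.1, the smallest possible with 3 against 3 libraries, and 0.129 after Benjamini-Hochberg adjustment over 9 ratios. The RNA of ARNT, VHL, HIF1AN and EGLN2 hardly differed between the groups. Ratios with these genes therefore mostly restate the differences of HIF1A, EGLN1 and EGLN3. For EPAS1 to ARNT the difference was 0.25 (exact permutation p = 0.2, adjusted 0.225) and for EGLN3 to EGLN1 it was 0.11 (exact permutation p = 0.4, adjusted 0.4). The differences of EGLN1 and EGLN3 were thus not told apart in size.

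HIF1A and the median of the HIF target genes, centred on gene means over the 6 libraries, had opposite signs in every library. Both parted the groups, in opposite directions, so these signs largely restate the group differences. A list of 41 known HIF target genes, mostly of glycolysis and the hypoxia response, had 40 tested members. Of these, 12 passed the test as lower, 0 as higher and 28 did not pass, beside 0.159% of all tested genes that passed as lower. Of the 40, 38 had a log2 change below 0, while CA12 and RBCK1 were above it at 0.05 each. An unadjusted p under 0.05 was reached by 35, all lower, beside 7.03% of all tested genes. The groups did not overlap for 35, all lower, beside 10.4% of all tested genes. The median log2 change of the list was -0.45, beside -0.01 over all tested genes. The list was written with earlier results of these data known, so its direction is not independent evidence. The number passing as lower was 0 without a filter, 1 without a variance trend, and 7 with TPM, median-of-ratios or quantile scaling. It was 3 without control replicate 2, 7 without control replicate 3, 5 without ZNF207 replicate 1 and 3 without ZNF207 replicate 3. The list median stayed between -0.50 and -0.39 under all 17 alternatives. The 3 members with the smallest p were the aldolase isoform ALDOC, LOX, which crosslinks collagen, and the enolase isoform ENO2, with log2 changes of -0.79, -0.95 and -0.84 (limma adjusted p 0.00383, 0.00414 and 0.00644).

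Per library, with each gene centred on its mean over the 6 libraries, the median of the target genes on the log2 scale was -0.19, -0.15 and -0.37 in ZNF207 libraries and 0.18, 0.36 and 0.17 in control libraries. HIF1A on the same scale was 0.21, 0.13 and 0.35 in ZNF207 libraries and -0.22, -0.39 and -0.08 in control libraries. ZNF207 replicate 3 thus had the highest HIF1A and the lowest target level, and control replicate 2 the lowest HIF1A and the highest target level. EGLN1 lay with the targets, at -0.12, -0.14 and -0.32 in ZNF207 libraries and 0.10, 0.37 and 0.11 in control libraries. EGLN3 did so between the groups, at -0.14, -0.14 and -0.12 in ZNF207 libraries, while in control libraries it stood at 0.04, 0.21 and 0.15.

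**Figure D4:**
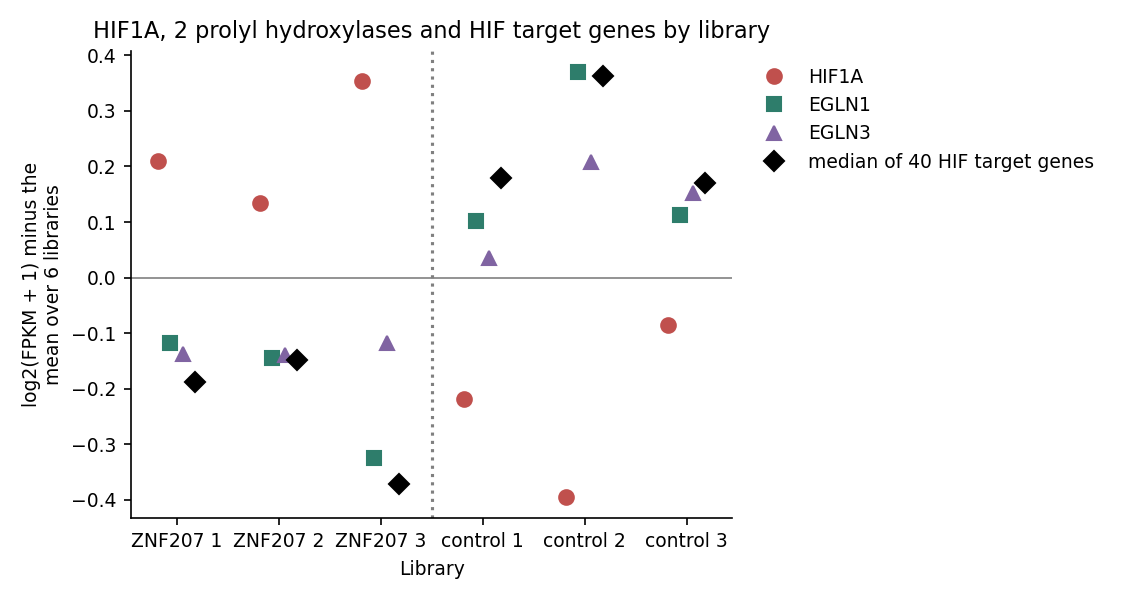
Log2(FPKM + 1) of HIF1A, EGLN1 and EGLN3 and the median over 40 tested HIF target genes, each gene centred on its mean over the 6 libraries (vertical axis), for the ZNF207 overexpression libraries (left of the dotted line) and the control libraries (right). HIF1A lies above 0 where the other 3 lie below it, and the reverse; it is highest in ZNF207 replicate 3 (0.35) and lowest in control replicate 2 (-0.39).

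The genes whose centred profile over the 6 libraries differed least from that of EGLN1, among 9788 tested genes averaging at least 5 FPKM, were VEGFA, the vascular growth factor, ALDOA, an aldolase, and PFKP, a phosphofructokinase. Their root mean square differences from EGLN1 were 0.02, 0.03 and 0.03 on the log2 scale. This measure takes in the difference between the groups, so genes near a member in profile share that difference by selection. VEGFA and ALDOA are also on the list of HIF target genes. VEGFA stood at 115, 117 and 101 FPKM in ZNF207 libraries and at 136, 163 and 132 FPKM in control libraries. The genes nearest to HIF1A were MTATP6P1, a nuclear pseudogene copy of a mitochondrial gene, the zinc finger gene ZNF165 and SAMD9, an interferon-induced antiviral gene, with root mean square differences of 0.05 each. MTATP6P1 stood at 206, 198 and 232 FPKM in ZNF207 libraries and at 156, 125 and 170 FPKM in control libraries, and its value is uncertain because reads of the mitochondrial gene can match it. The 13 protein genes of mitochondrial DNA, looked at after these values were seen, took 6.64%, 5.71% and 6.31% of all FPKM in ZNF207 libraries and 5.42%, 4.35% and 5.32% in control libraries. The mitochondrial share thus lay with HIF1A between the groups and was lowest in the same library of each group, and its part in the HIF1A difference was not tested.

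Genes that act around the sensor gave 0 calls in each of 6 further lists (limma, adjusted p under 0.05). Among 19 tested partners of the VHL ligase and factors of HIF stability, 2 reached an unadjusted p under 0.05, both lower, a share close to the 12.1% of all tested genes, and the median log2 change was -0.04. The ligase subunits ELOB, ELOC, CUL2 and RBX1 had log2 changes of -0.03, -0.08, 0.10 and -0.11. The 2 lower genes were FBXW7, a ubiquitin ligase subunit that can mark HIF1A independently of oxygen, and USP28, the deubiquitinase that opposes it. FBXW7 stood at 11.2 ± 0.377 FPKM in ZNF207 libraries and 14.3 ± 0.799 FPKM in control libraries (SD, n = 3 each, log2 change -0.33, limma adjusted p = 0.129), and USP28 at 9.69 ± 1.15 FPKM in ZNF207 libraries and 12.8 ± 0.806 FPKM in control libraries (-0.37, adjusted p = 0.163). The chaperone HSP90AA1, which holds HIF1A stable, followed at 0.11 (adjusted p = 0.475).

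Of 15 tested coactivators and repressors, 2 reached an unadjusted p under 0.05, both lower, again a share close to the 12.1% of all tested genes (median log2 change -0.02). These were PKM, a glycolytic enzyme that is itself a HIF target and a HIF coactivator (log2 change -0.28, limma adjusted p = 0.0814), and CITED2, a HIF-induced protein that competes with HIF for EP300 and CREBBP. CITED2 stood at 86.1, 88.3 and 75.7 FPKM in the ZNF207 libraries, against 97.7, 117 and 102 FPKM in the control libraries (-0.33, adjusted p = 0.135). The groups did not overlap, and control replicate 2 was again the highest. The coactivators EP300 and CREBBP had log2 changes of 0.04 and 0.13 (adjusted p 0.901 and 0.457).

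The 9 tested relatives of the HIF subunits in the bHLH-PAS family had 0 members at an unadjusted p under 0.05 and a median log2 change of 0.08. The clock gene CLOCK was at 0.18, the coactivator NCOA3 at 0.10 and the clock-related NPAS2 at 0.32 (limma adjusted p 0.445, 0.569 and 0.582). In 20 enzymes that make or use 2-oxoglutarate, succinate and fumarate, the cosubstrate and inhibitors of the hydroxylases, 6 reached an unadjusted p under 0.05, of which 5 were higher, beside 12.1% of all tested genes in either direction and 5.08% higher, and the median log2 change was 0.02. OGDH, which consumes 2-oxoglutarate, stood at 28.7 ± 0.308 FPKM in ZNF207 libraries and 23.1 ± 0.783 FPKM in control libraries (SD, n = 3 each, log2 change 0.30, adjusted p = 0.0883). GLUD1, which makes 2-oxoglutarate from glutamate, was at 0.25 (adjusted p = 0.208) and D2HGDH, which removes D-2-hydroxyglutarate, at -0.32 (adjusted p = 0.223).

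Iron is the metal of the hydroxylases. The 11 tested genes of iron supply had 0 members at an unadjusted p under 0.05 and a median log2 change of 0.02, and the smallest p was that of the ferritin receptor NCOA4 (log2 change 0.11, limma adjusted p = 0.539), followed by the iron-sensing ligase subunit FBXL5 and the ferrireductase STEAP3 (0.13 and 0.10, adjusted p 0.619 and 0.682). Among 14 genes that act on HIF alpha RNA or translation, 2 reached an unadjusted p under 0.05, 1 in each direction, a share close to the 12.1% of all tested genes, and the median log2 change was 0.00. NFKB1, an NF-kB subunit gene whose pathway is known to drive HIF1A transcription, stood at 18.3 ± 0.427 FPKM in ZNF207 libraries and 14.9 ± 0.892 FPKM in control libraries (SD, n = 3 each, log2 change 0.28, adjusted p = 0.151). The translation repressor EIF4EBP1 was at -0.19 (adjusted p = 0.369) and the mTOR inhibitor TSC1 at -0.11 (adjusted p = 0.664).

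Among genes assigned to EPAS1 in renal carcinoma cells, 3 passed the filter on low values and 0 were called, with a median log2 change of -0.16 that was 0.01 without the filter. All 3 had an unadjusted p under 0.05, beside 12.1% of all tested genes, and groups that did not overlap, beside 18%. They were 1 higher and 2 lower, and 3 of 6 listed genes are too few for a result about the list. TGFA, a growth factor, had a log2 change of 0.26, the cyclin CCND1 of -0.16 and the chemokine receptor CXCR4 of -0.22 (limma adjusted p 0.26, 0.258 and 0.286).

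**Figure D5:**
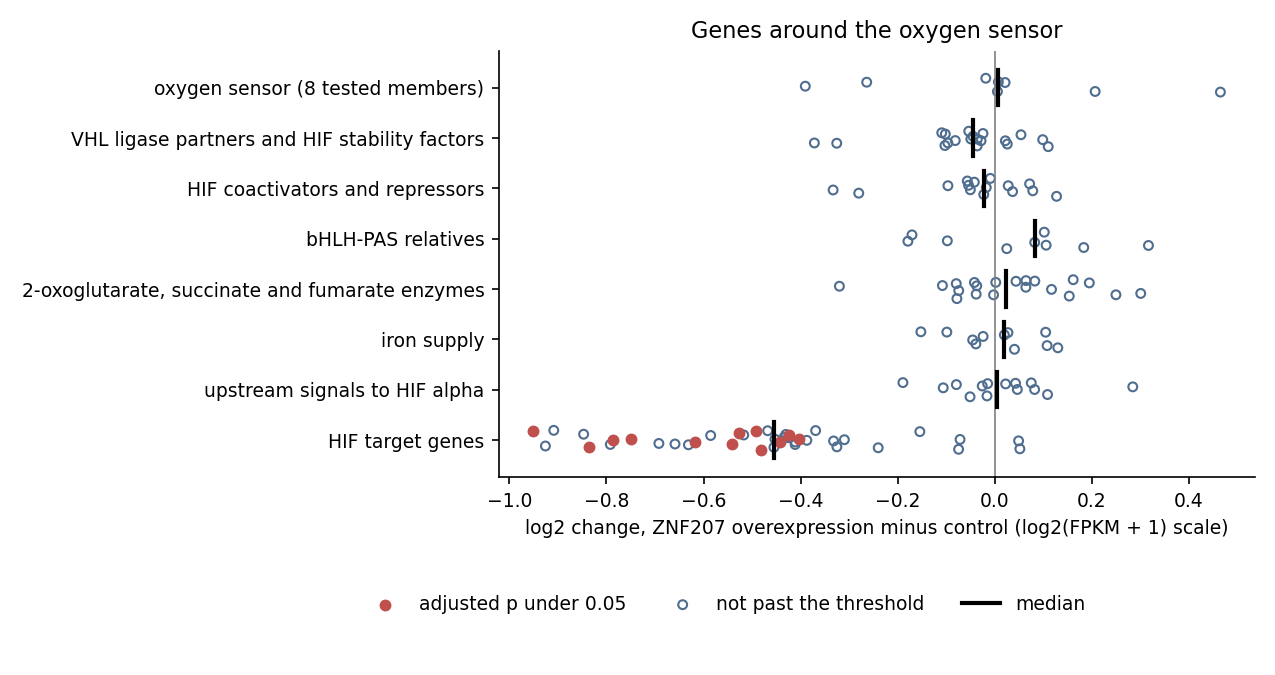
Log2 change (horizontal axis, ZNF207 overexpression minus control on the log2(FPKM + 1) scale) of each tested gene in the oxygen sensor and in 7 lists around it; filled points passed the limma test at an adjusted p under 0.05 and black lines are medians. Only the HIF target list holds filled points, 12 in number, and its median is -0.45.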

How the data were processed

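RNA sequencing of 6 MDA-MB-453 libraries was deposited as FPKM values, made by the authors with 1 column per library; Bowtie2, RSEM 1.3.1 and DESeq2 1.4.5 on hg38 are named in the submitters' processing notes, while not given in the sources used here are each tool's role, the annotation and the strand. Columns named 207 and NC were matched to the overexpression and control titles by name and final digit. A gene name with several of the 60658 rows kept its row of highest mean.

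Since FPKM is no count, count tests were left out. Read depth is unknown, because the ratio of a pair of libraries was common to at most 0.449% of 2006 low genes. Values were analysed as log2(FPKM + 1), a scale that understates changes of low genes, for the 13185 genes that reached 1 FPKM in 3 libraries. The comparison used limma 3.58.1 (R 4.3.3; mean-variance trend, two-sided, Benjamini-Hochberg over all tested genes, threshold 0.05), after the procedure was tested on simulated data. Shares and ratios used exact permutation over 3 against 3 libraries. No pair of libraries shared more than 8 identical values among tested genes.

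Members and gene lists were chosen with earlier results of these data known. Named genes were all members and every overlapping RNA found that passed the filter. Added to these were the 3 genes of each further list with the smallest p, and the 3 genes nearest in profile to HIF1A and EGLN1. Others were named for their role or their place beside a member, after their values were seen. Coordinates are GENCODE 29, start windows RefSeq. Reads of overlapping or similar genes may be shared. Alternatives tried were other pseudocounts, filters, scalings, variance models, array weights, a replicate block, and each library left out, with the filter kept from all 6.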

Additional observations from a re-analysis of the deposited data

How the results depend on the processing

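HIF1A stayed above 0 and EGLN1 and EGLN3 below 0 under all 17 alternatives, with log2 changes of 0.38 to 0.54, -0.44 to -0.30 and -0.31 to -0.23, and EPAS1 ran from 0.14 to 0.25 under the 16 that tested it. HIF1A passed the test with the filter at an FPKM of 5 (0.46, adjusted p = 0.0434, 1 member past the threshold) and with the replicate block (0.46, adjusted p = 0.0123, 1 member), and its adjusted p was at most 0.308, without a filter; EGLN1 had 0.0600 to 0.393 and EGLN3 0.177 to 0.601. Replicate numbers were not taken as pairs. Deviations of same-numbered libraries correlated at 0.136, 0.009 and 0.175. Of all pairs across the groups, 0.175 and 0.136 were the highest, while neither library numbered 2 correlated best with the other. Whether the numbers stand for pairs was thus not settled. With the block 145 genes were called, against 28 without it, and 33 HIF target genes passed as lower, against 12. The signs of the members near 0 turned: EGLN2 was 0.00 after rescaling to TPM and 0.0003 with array weights. With a library left out, ARNT ran from -0.0338 to 0.0608, EGLN2 from -0.0579 to 0.0415, VHL from -0.0327 to 0.0521 and HIF1AN from -0.0297 to 0.069. Called genes numbered 4 without a filter, 64 with the filter at 5, 18 with TPM, 17 with median-of-ratios scaling and 5 without a trend. HIF target genes that passed as lower numbered 0 without a filter, 22 with the filter at 5 and 7 with TPM. They numbered 7 with median-of-ratios scaling, 1 without a trend and 7 with quantile scaling. With a library left out, which leaves fewer samples, called genes ran from 7 (without ZNF207 replicate 3) to 33. HIF target genes that passed as lower ran from 3 to 11, while the median of that list stayed between -0.50 and -0.39. The cause of the other shifts was not tested. With 3 libraries a group and no read numbers, differences the size of that of EGLN3 were not separable from the spread after adjustment.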
